A study of Mus musculus with 30 samples.

Results

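Imprinted genes are expressed mainly or only from the copy inherited from 1 parent, and 34 such genes were followed here among the 55487 genes of the count tables. They are a fixed list of symbols from 7 imprinted clusters and 9 further loci, chosen with earlier results of these data known. All 34 were found in the tables by their Ensembl identifiers. As background, 13 of them are expressed from the maternal copy and 21 from the paternal copy.

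The study examined how ETV2 (ER71), a transcription factor of the ETS family needed for blood and vessel lineages, acts with KDM4A, a demethylase of lysine 9 on histone H3. All samples carried the label of mouse embryonic stem cells. RNA was counted in 18 libraries from 6 groups of 3. The first experiment used the cell line iETV2, in which doxycycline (DOX) switches on Etv2, without DOX (labelled Control) and with DOX. The second used the line iETV2-KDM4A (H188A), called the H188A line below after its KDM4A variant, also without and with DOX. The third compared cells of genotype Control with cells of genotype KDM4A/4C DKO, where both Kdm4a and the related demethylase gene Kdm4c are to be knocked out. Another experiment mapped H3K9me3, trimethylated lysine 9 of histone H3 and a mark of repressed chromatin, in 3 DOX-treated libraries and 3 libraries from untreated samples. The DOX-treated libraries were titled EB-DOX-D2, EB-DOX-D3 and EB-Er71-Flag-DOX-D2. The untreated ones were titled EB-noTreat with a number, so EB stands in the titles of both groups. Clone numbers, passage, DOX dose and sampling time were not given in the sources used here. Nothing in the labels says that replicates came from separate cultures, so p-values measure the spread between these libraries, which may be technical.

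Imprinted clusters are controlled by short CpG-rich regions that receive DNA methylation in only 1 of the germ lines. The methylated copy is kept in that state after fertilisation by the zinc finger proteins ZFP57 and ZFP445, which recruit TRIM28, the H3K9 methyltransferase SETDB1 and DNA methyltransferases, so that DNA methylation and H3K9me3 mark the same copy. Many clusters pair protein-coding genes of fetal and placental growth with a long noncoding RNA made from the opposite copy. Cultured embryonic stem cells are known to lose or gain imprints, at Dlk1-Meg3 and H19/Igf2 among others. Gene counts do not tell the parental copies apart, so none of the values below is an allelic measurement.

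Library totals were 40334911 to 68970038 counts, and levels are given as CPM, that is, counts scaled to a common library total. Etv2 was higher with DOX in iETV2 (2.93 to 18.6 CPM) and in the H188A line (0.376 to 15.2 CPM). In the libraries labelled DKO, Kdm4a was at 43.9 CPM against 54.6 in Control (log2 -0.44, adjusted p = 6.8e-08), and Kdm4c was at 45.5 against 30.7 CPM (log2 0.45, adjusted p = 5.0e-07). Counts summed over a whole gene thus do not by themselves show the labelled knockout, and these libraries are called the libraries labelled DKO. Summed levels of marker genes separated the same 2 groups. The 8 pluripotency markers summed to 144 to 155 CPM in Control and 2227 to 2276 CPM in the libraries labelled DKO, so that the cell type named in the labels was not borne out by its defining markers in the Control libraries. The 4 blood markers summed to 983 to 1027 against 7.84 to 8.66 CPM, the 4 endothelial markers to 539.9 to 548 against 120.0 to 124 CPM, and the 7 fibroblast markers to 436 to 449 against 39.8 to 43.1 CPM. Y-linked genes summed to 145 to 159.6 CPM in the 6 iETV2 libraries and to at most 0.347 CPM in each of the other 12. The experiments and their cells cannot be told apart, and levels set across them below are a description.

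The start sites of the imprinted genes are shown first, because H3K9me3 lay over many of them. RefSeq start-site windows (GRCm38.p6, the build of the deposited regions), each 300 bases long from 250 before to 50 after an annotated start, were matched for 28 of the 34 genes and gave 41 windows. An H3K9me3 region of the deposited lists overlapped 13 of these 41 windows (31.7%) in at least 4 of the 6 libraries, against 3.74% of 32851 windows of all genes. The 13 windows belong to 12 genes: Airn, Grb10, Kcnq1ot1, Meg3, Mest, Nap1l5, Nnat, Peg3, Plagl1, Snrpn, Usp29 and Zrsr1. Some share DNA, since Peg3 and Usp29 start back to back within 1 window length and Mest has a pair of annotated starts nearly at the same base. The windows were searched on both strands for TGCCGC (reverse complement GCGGCA), the hexamer that ZFP57 is known to bind when it is methylated. It was present in 12 of the 41 windows (29.3%) and in 11.6% of all windows, and in 7 of the 13 windows with H3K9me3 (53.8%) against 4.16% of the 1227 windows of all genes with H3K9me3. The overlapping pair of Mest windows is counted separately in the 7. The hexamer contains a CpG, and the 13 windows held a median of 13 CpG against 2 in the 1227. The part of CpG content in these shares was not tested. The 20 windows of imprinted genes that no library marked held it in 3 cases (15%). A match is a description of these letters and not a measured binding site.

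Meg3, Snrpn, Mest, Nnat, Plagl1 and Nap1l5 carry both the mark and the hexamer, which is printed in capitals in either orientation, and are shown because they are the start sites at which the mark and the motif coincide. Peg3 is shown as a marked window without the hexamer and Phlda2 as an unmarked one. Sequences run 5′ to 3′ on the strand of the gene and are credited to RefSeq. The positions are chr12:109540746-109541045, plus strand (Meg3), chr7:60005150-60005449, minus strand (Snrpn), chr6:30737800-30738099, plus strand (Mest), chr2:157559828-157560127, plus strand (Nnat), chr10:13090582-13090881, plus strand (Plagl1), chr6:58907077-58907376, minus strand (Nap1l5), chr7:6730370-6730669, minus strand (Peg3) and chr7:143502475-143502774, minus strand (Phlda2).
Meg3: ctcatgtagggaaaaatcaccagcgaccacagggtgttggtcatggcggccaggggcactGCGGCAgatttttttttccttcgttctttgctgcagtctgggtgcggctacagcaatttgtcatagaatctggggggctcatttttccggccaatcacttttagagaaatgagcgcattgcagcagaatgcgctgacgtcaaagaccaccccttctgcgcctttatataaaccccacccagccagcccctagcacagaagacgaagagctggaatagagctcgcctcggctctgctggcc
Snrpn: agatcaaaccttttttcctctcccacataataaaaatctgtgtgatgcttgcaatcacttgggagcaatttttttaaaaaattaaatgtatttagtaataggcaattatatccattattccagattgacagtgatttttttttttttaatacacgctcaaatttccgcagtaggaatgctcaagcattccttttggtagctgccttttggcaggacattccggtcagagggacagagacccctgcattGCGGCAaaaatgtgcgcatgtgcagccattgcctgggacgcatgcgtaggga
Mest: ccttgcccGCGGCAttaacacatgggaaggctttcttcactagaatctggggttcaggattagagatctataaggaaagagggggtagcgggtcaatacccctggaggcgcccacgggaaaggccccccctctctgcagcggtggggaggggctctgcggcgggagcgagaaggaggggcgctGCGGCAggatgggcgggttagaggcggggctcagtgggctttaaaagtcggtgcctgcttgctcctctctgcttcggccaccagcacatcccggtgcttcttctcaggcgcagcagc
Nnat: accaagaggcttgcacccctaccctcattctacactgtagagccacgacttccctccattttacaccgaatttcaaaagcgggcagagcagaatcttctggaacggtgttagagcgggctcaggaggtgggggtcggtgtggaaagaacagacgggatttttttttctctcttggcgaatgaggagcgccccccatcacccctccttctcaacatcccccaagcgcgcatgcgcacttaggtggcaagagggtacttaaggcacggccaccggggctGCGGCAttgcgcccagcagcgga
Plagl1: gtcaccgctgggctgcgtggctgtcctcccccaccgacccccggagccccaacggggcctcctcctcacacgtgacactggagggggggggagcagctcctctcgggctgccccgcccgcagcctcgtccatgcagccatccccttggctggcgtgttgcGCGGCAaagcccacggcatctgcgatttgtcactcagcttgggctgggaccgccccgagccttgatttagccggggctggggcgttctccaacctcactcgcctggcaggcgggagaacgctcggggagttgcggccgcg
Nap1l5: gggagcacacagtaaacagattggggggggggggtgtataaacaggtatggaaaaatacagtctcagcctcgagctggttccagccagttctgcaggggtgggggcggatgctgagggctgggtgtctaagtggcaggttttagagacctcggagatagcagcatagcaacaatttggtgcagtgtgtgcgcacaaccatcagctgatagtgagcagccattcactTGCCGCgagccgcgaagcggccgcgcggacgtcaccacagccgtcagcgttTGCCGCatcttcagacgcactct
Peg3: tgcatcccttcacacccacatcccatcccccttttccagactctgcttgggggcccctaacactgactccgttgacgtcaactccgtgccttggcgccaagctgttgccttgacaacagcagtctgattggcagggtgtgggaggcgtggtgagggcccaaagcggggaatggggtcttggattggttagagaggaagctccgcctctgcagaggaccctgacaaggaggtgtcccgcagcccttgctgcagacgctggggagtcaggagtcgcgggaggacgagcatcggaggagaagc
Phlda2: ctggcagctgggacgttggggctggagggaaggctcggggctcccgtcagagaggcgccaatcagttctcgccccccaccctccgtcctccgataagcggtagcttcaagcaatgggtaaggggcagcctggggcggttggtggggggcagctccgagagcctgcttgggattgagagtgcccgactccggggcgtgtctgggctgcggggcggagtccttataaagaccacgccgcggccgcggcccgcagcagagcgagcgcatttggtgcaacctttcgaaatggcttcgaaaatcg

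H3K9me3 regions lay over these start sites in DOX-treated and untreated libraries alike. Each deposited region has the authors' log2 fold of ChIP over input, which describes a region within its own library and was not compared between libraries. Over the Nnat start it was 1.93 to 2.21 (median 2.02) across the 6 libraries, at percentile 81.9 to 95 of all regions of a library. Nnat encodes neuronatin and is the imprinted gene inside an intron of Blcap. Over the start of Plagl1, a zinc finger transcription factor, the log2 fold was 1.35 to 1.96 (median 1.72), at percentile 63.3 to 88.6. At Meg3, the maternally expressed noncoding RNA of the Dlk1 cluster, it was 1.06 to 1.54 (median 1.3), and at the shared Peg3 and Usp29 start it was 0.995 to 1.58 (median 1.3). The regions over Nnat and Plagl1 thus ranked in the upper part of each list, and that over Meg3 near the middle (percentile 46.5 to 65.8). Snrpn (0.996 to 1.76 (median 1.11)), Airn (0.703 to 1.35 (median 1.17)), Nap1l5 (0.835 to 1.59 (median 0.998)), Mest (0.836 to 1.1 (median 0.972)) and Zrsr1 (0.538 to 1.24 (median 0.874)) also had a region in all 6 libraries. Kcnq1ot1 (0.329 to 1.54 (median 1.005)) and Grb10 (0.692 to 1.29 (median 0.93)) had one in 5. Regions over these further starts ranked lower, with median percentiles of 48.4 (Airn), 42.9 (Snrpn), 37.6 (Nap1l5), 31.7 (Mest), 29.4 (Kcnq1ot1), 28.2 (Grb10) and 27.4 (Zrsr1). Regions of several kilobases were common here, with a median length of 8900 bp at both Nnat and Meg3, so a region over a start is not centred on it.

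**Figure D1:**
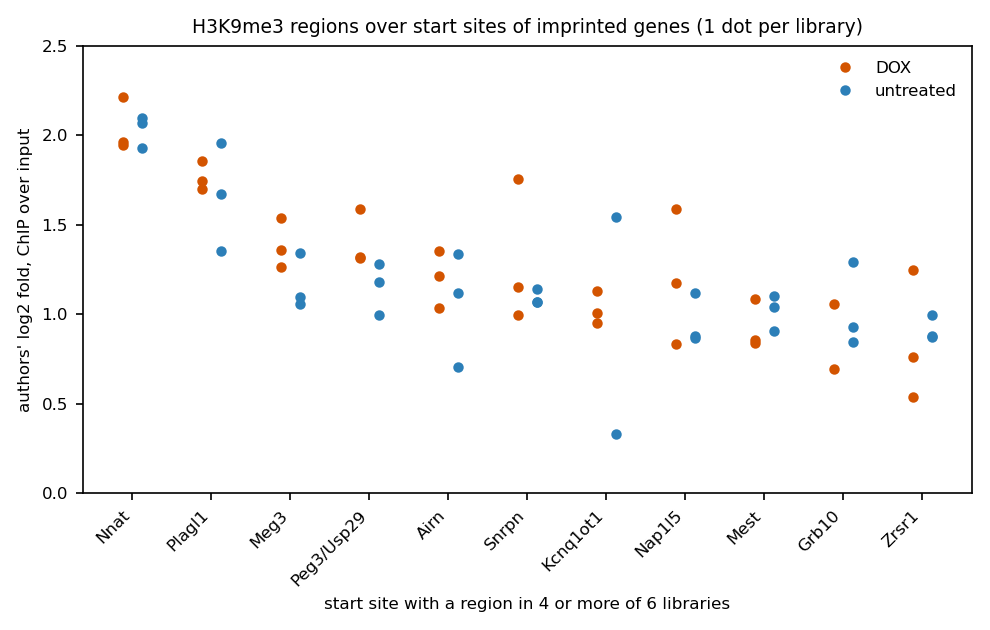
Authors' log2 fold of ChIP over input (vertical axis) of the H3K9me3 region over each start site of an imprinted gene that had a region in at least 4 of 6 libraries; each dot is 1 library, orange for DOX and blue for untreated, and start sites are ordered by their median. Nnat lies farthest to the left, at 1.93 to 2.21 on the log2 scale.

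Counted over whole genes with 5 kb on either side, 21 to 24 of the 34 imprinted genes had an H3K9me3 region in a given library (61.8 to 70.6%), against 26.1 to 30.4% of 37889 genes. The mean was 23.3 ± 0.58 genes (SD, n = 3) with DOX and 22.3 ± 1.53 (SD, n = 3) without, a difference of 1 gene that was not larger than the spread between libraries (two-sided exact permutation test, p = 0.5, where 0.1 is the smallest p this design allows). With 10 kb on either side it was 25.3 ± 0.58 against 23.7 ± 0.58 genes (SD, n = 3 each), a difference of 1.67 genes that was larger than the spread between libraries and reached that smallest p of 0.1. The DOX-treated libraries carry different titles and were taken as replicates by their treatment label. Their spread may therefore hold differences between unlike samples. In at least 4 of the 6 libraries 22 of the 34 genes had a region (64.7%), against 25.3% of all genes. The imprinted genes are longer, with a median gene length of 23853 bp against 6677 bp for all genes, and the part of length in this count was not tested. Zim1, Rian, Dlk1, Rtl1, Ndn, Magel2 and Phlda2 had no region in any library. Mcts2, a retrogene inside H13, had one in 3 of 3 DOX-treated libraries and in 0 of 3 untreated libraries, and it was singled out after its values were seen. The 22 genes with a region had a median absolute log2 change of 1.59 in the libraries labelled DKO, against 1.08 for the other 12, given as a description since the ChIP came from other cells.

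The third experiment held the widest differences in imprinted genes. Compared with Control, 11 of the 34 genes rose and 20 fell in the libraries labelled DKO, and 3 did not pass the test (edgeR quasi-likelihood test, adjusted p under 0.05). Among all 20426 genes tested 35.6% rose and 33.7% fell, so the share that passed the test was high for imprinted genes and for genes in general. The sizes differed more than the counts: the median absolute log2 change was 1.24 over the 34 genes and 0.56 over all genes, and 19 of the 34 (55.9%) were called with at least a 2-fold change, against 28.4% of all genes. These sizes are a description of the listed genes, since the list was chosen with earlier results of these data known. Of the 21 paternally expressed genes 5 rose and 15 fell, with a median log2 change of -0.57, and of the 13 maternally expressed genes 6 rose and 5 fell, with a median of 0.10. In bulk RNA, fewer cells of a type and less RNA per cell cannot be told apart. The marker sums given above moved between the same groups, and their part in the changes below was not tested.

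**Figure D2:**
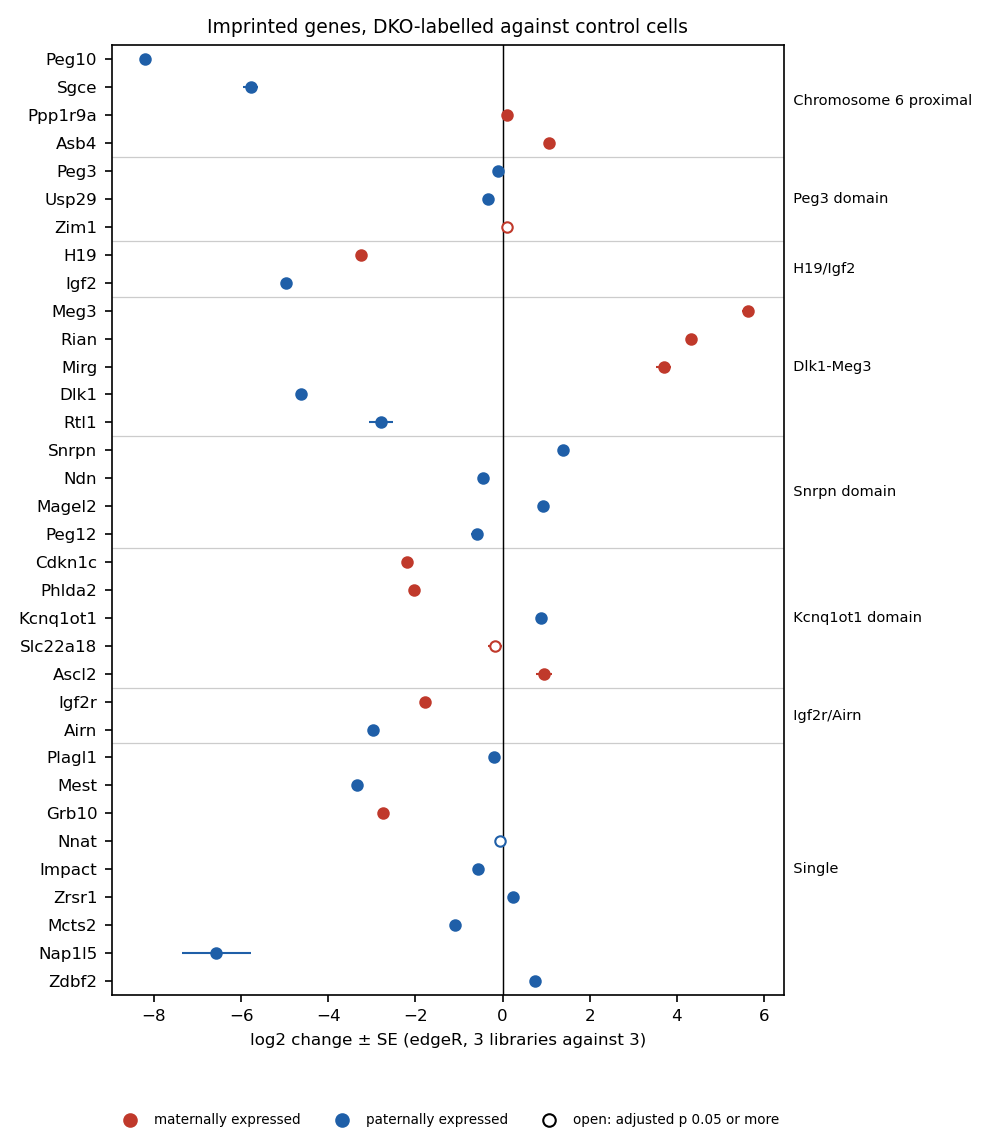
Fitted log2 change (horizontal axis, ± SE) of each of the 34 imprinted genes in the libraries labelled DKO against Control, 3 libraries each, ordered by cluster, red for maternally and blue for paternally expressed genes; open symbols did not pass the test. Peg10 lies lowest at -8.21 and Meg3 highest at 5.63, and the value of Nap1l5 rests on 1 count in the libraries labelled DKO, so its size is not readable from the plot.

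In the proximal cluster of chromosome 6, the neighbouring paternally expressed genes Peg10 and Sgce fell together while the maternally expressed Asb4 rose. Peg10 is a retrotransposon-derived gene needed for the placenta (chr6:4747306-4760517, GRCm38). It was at 3422, 3325 and 3372 CPM in the 3 Control libraries and at 11.3, 12.2 and 13.7 CPM in those labelled DKO. That is 272 times lower in the mean, with every DKO-labelled library far below every library of the other 5 groups (log2 change -8.21 ± 0.059 (SE), adjusted p = 2.0e-27). Sgce, which encodes epsilon-sarcoglycan and lies head to head with Peg10 (chr6:4674350-4747204), went from 22.1, 21.5 and 20.3 to 0.162, 0.582 and 0.463 CPM (log2 change -5.78 ± 0.17 (SE), adjusted p = 7.5e-18). Its Control level of 21.3 ± 0.909 CPM (SD, n = 3) was close to the 22.5 ± 0.753 CPM (SD, n = 3) of untreated iETV2, so the libraries labelled DKO stand apart rather than the Control ones. Asb4, a substrate adaptor of ubiquitin ligases, was at 35.8, 39.1 and 35.6 CPM in Control and 84.7, 85.4 and 82.7 CPM in the libraries labelled DKO, without overlap (log2 change 1.07 ± 0.049 (SE), adjusted p = 2.1e-14). Ppp1r9a, which encodes the actin-binding protein neurabin, rose slightly from 69.4 ± 0.874 to 81.2 ± 3.24 CPM (SD, n = 3; log2 0.10, adjusted p = 0.034). The call was lost when any library other than DKO replicate 3 was left out (0.09, adjusted p = 0.13 without DKO replicate 1), by DESeq2 (0.09, adjusted p = 0.16), with its size factors (0.09, adjusted p = 0.078) or with all 18 libraries (0.12, adjusted p = 0.21).

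The Dlk1-Meg3 cluster on chromosome 12 split by parental origin: its 3 maternally expressed noncoding RNAs rose and its 2 paternally expressed coding genes fell. Meg3 (chr12:109540996-109571729) was at 0.611, 1.31 and 1.71 CPM in Control and 69.1, 65.1 and 63.8 CPM in the libraries labelled DKO (log2 change 5.63 ± 0.13 (SE), adjusted p = 1.6e-19). The Control libraries are the low ones here, since Meg3 was at 608 ± 42.8 CPM (SD, n = 3) in untreated iETV2 and 549 ± 2.37 CPM (SD, n = 3) in the untreated H188A line. Rian, a host of small nucleolar RNAs and microRNAs, showed the same order, at 2.75, 3.96 and 3.45 CPM in Control, 69.4, 76.7 and 75.9 CPM in the libraries labelled DKO and 1015 ± 42.6 CPM (SD, n = 3) in untreated iETV2 (log2 change 4.33 ± 0.084 (SE), adjusted p = 8.8e-21). Mirg, a microRNA host further along the same strand, rose from 0.616 ± 0.18 to 8.8 ± 0.729 CPM (SD, n = 3; log2 3.70, adjusted p = 3.6e-14). Meg3, Rian and Mirg were therefore lowest in Control, intermediate in the libraries labelled DKO and highest in the other 4 groups, and for each of them the Control values lay below those of all other groups without overlap.

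The coding genes of the cluster ran the other way. Dlk1, a membrane protein related to the Notch ligands that restrains adipocyte differentiation, was at 60.3, 60.2 and 59.9 CPM in Control and 2.77, 2.77 and 2.36 CPM in the libraries labelled DKO (log2 change -4.63 ± 0.073 (SE), adjusted p = 2.9e-22). Its Control libraries lay above those of all 5 other groups, which ranged up to 10.7 CPM in iETV2 with DOX. Rtl1, a retrotransposon-like gene of placenta and muscle, fell from 2.59 ± 0.612 to 0.399 ± 0.0869 CPM (SD, n = 3; log2 -2.80, adjusted p = 1.1e-08). The annotated span of Rtl1 touches those of Meg3 and Rian, and no strand setting is given for the counts, so its low values are uncertain.

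H19 and Igf2, a neighbouring noncoding RNA and growth factor gene that share enhancers on chromosome 7, both fell although they are expressed from opposite copies. H19 (chr7:142575530-142578146) was at 348, 340.0 and 339.9 CPM in Control and 41.1, 36.8 and 40.9 CPM in the libraries labelled DKO (log2 change -3.24 ± 0.047 (SE), adjusted p = 7.0e-23). Igf2 (chr7:142650768-142666816), the fetal growth factor, was at 294, 293 and 267 and 9.57, 11.2 and 8.84 CPM (log2 change -4.97 ± 0.070 (SE), adjusted p = 4.7e-23). For both genes the Control libraries were the highest of all 18 and did not overlap any other group. In the DOX-treated lines H19 averaged 13.5 (iETV2) and 24.2 CPM (H188A) and Igf2 30.7 and 4.85 CPM.

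In the Kcnq1ot1 domain, also on chromosome 7, the 2 growth-restraining genes fell while the long noncoding RNA and Ascl2 rose. Cdkn1c encodes the cyclin-dependent kinase inhibitor p57 and was at 116, 112 and 116 CPM in Control and 25.2, 27.6 and 29 CPM in the libraries labelled DKO (log2 change -2.19 ± 0.051 (SE), adjusted p = 1.8e-19). Phlda2, which restrains placental growth, was at 190.2, 185 and 192 and 46.3, 50.9 and 52.7 CPM (log2 change -2.04 ± 0.047 (SE), adjusted p = 1.3e-19). Kcnq1ot1, the paternally expressed RNA that silences its neighbours on the same copy, was at 302, 313 and 312 CPM in Control and 628, 620.1 and 619 CPM in the libraries labelled DKO, the highest of all groups (log2 change 0.89 ± 0.034 (SE), adjusted p = 8.9e-16). Ascl2, a transcription factor of trophoblast, rose from 1.7 ± 0.322 to 3.59 ± 0.455 CPM (SD, n = 3; log2 0.95, adjusted p = 1.3e-04). Slc22a18, a transporter gene, was at 3.88 ± 0.684 and 3.75 ± 0.523 CPM (SD, n = 3; log2 -0.17, adjusted p = 0.35). Kcnq1ot1 is transcribed antisense inside Kcnq1, so without a strand setting its counts may include reads of that gene.

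Igf2r and the antisense RNA Airn on chromosome 17 both fell. Igf2r encodes the receptor that clears IGF2 and was at 756, 762 and 756 CPM in Control and 249, 239 and 233 CPM in the libraries labelled DKO (log2 change -1.78 ± 0.036 (SE), adjusted p = 2.0e-20). The DKO-labelled level of 240.0 ± 8.17 CPM (SD, n = 3) was near the 236 ± 5.82 CPM (SD, n = 3) of untreated iETV2, and the Control libraries stood apart above all others. Airn, the paternally expressed RNA that silences Igf2r on its own copy, was at 44.7, 46.2 and 47.7 and 5.9, 6.44 and 6.69 CPM (log2 change -2.98 ± 0.067 (SE), adjusted p = 1.0e-19). Airn overlaps Igf2r on the other strand, so its counts and those of Igf2r cannot be separated where they overlap unless strand was used.

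Genes of the Snrpn domain on chromosome 7, all paternally expressed, did not move one way. Snrpn, a splicing factor subunit, was at 17.6, 19.2 and 18.2 CPM in Control and 50.3, 56.1 and 51 CPM in the libraries labelled DKO (log2 change 1.40 ± 0.059 (SE), adjusted p = 6.8e-15). Magel2, a ubiquitin ligase regulator, was at 7.76, 7.94 and 8.46 and 16.3, 17.1 and 16.7 CPM (log2 change 0.93 ± 0.078 (SE), adjusted p = 6.7e-10). Control was the lowest of the 6 groups for both. Ndn, which encodes necdin, fell from 19.6, 21.2 and 20.1 to 16, 16.6 and 16 CPM (log2 -0.45, adjusted p = 4.8e-06), and Peg12 fell from 6.64 ± 0.194 to 4.86 ± 1.12 CPM (SD, n = 3; log2 -0.58, adjusted p = 7.8e-04). The Peg3 domain moved little in this experiment. Peg3, a zinc finger gene, was at 1316, 1347 and 1353 CPM in Control and 1392, 1345 and 1349 CPM in the libraries labelled DKO, with overlapping libraries. The fit gave a small decrease (log2 change -0.10 ± 0.031 (SE), adjusted p = 0.0084), although the mean CPM was 1.02 times that of Control, so the sign differs between library totals and the fitted scaling, under which Peg3 is among the 20 genes called lower. The call was lost when DKO replicate 2 was left out (-0.09, adjusted p = 0.079), without a filter on low counts (-0.01, adjusted p = 0.90) or with all 18 libraries in the fit (-0.08, adjusted p = 0.43). Usp29 fell from 33.2, 35.4 and 35.3 to 31.2, 28.3 and 29.7 CPM (log2 -0.34, adjusted p = 1.1e-05), and Zim1 was at 6.86, 5.21 and 6.55 and 7.68, 7.5 and 6.74 CPM (log2 0.11, adjusted p = 0.41).

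Among the genes outside these clusters, Mest and Grb10 fell most by counts. Mest, a paternally expressed hydrolase-fold gene of mesoderm, was at 1347, 1328 and 1313 CPM in Control and 139, 143 and 147 CPM in the libraries labelled DKO (log2 change -3.34 ± 0.040 (SE), adjusted p = 2.9e-24). Grb10, an adaptor that restrains insulin and IGF signalling, was at 1257, 1246 and 1226 and 198, 204 and 207 CPM (log2 change -2.74 ± 0.038 (SE), adjusted p = 4.1e-23). Zdbf2 rose from 273, 293 and 282 to 519, 507 and 518 CPM, and its DKO-labelled level was near the 515 ± 41.4 CPM (SD, n = 3) of untreated iETV2 (log2 change 0.74 ± 0.037 (SE), adjusted p = 8.4e-14). Nap1l5, a small intronless gene, had 134 counts over the 3 Control libraries and 1 count over the 3 labelled DKO, a ratio of CPM of 116 with a 95% counting interval of 20.5 to 4625 that covers counting error only. Of the remaining ones, Mcts2 (log2 -1.09, adjusted p = 2.2e-10) and Impact (log2 -0.57, adjusted p = 1.3e-11) fell, and Plagl1 fell slightly (log2 -0.20, adjusted p = 0.0081). Zrsr1 rose slightly (log2 0.25, adjusted p = 0.015), and Nnat did not pass the test (log2 -0.07, adjusted p = 0.51). The call of Zrsr1 was lost without DKO replicate 1 (0.16, adjusted p = 0.12) and by DESeq2 (0.23, adjusted p = 0.073). Plagl1 was lost without a filter on low counts (-0.11, adjusted p = 0.16) and with all 18 libraries in the fit (-0.19, adjusted p = 0.52). Plagl1 averaged 29.2 and 27.6 CPM in this experiment and at most 1.42 CPM in the other 4 groups.

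Seen over all 6 groups, the Control cells of the third experiment were the ones that stood apart most often among these 34 genes. Their libraries were above all 15 others for 12 genes (Peg10, H19, Igf2, Dlk1, Rtl1, Cdkn1c, Phlda2, Igf2r, Airn, Mest, Grb10 and Mcts2) and below all others for 6 (Ppp1r9a, Meg3, Rian, Mirg, Snrpn and Magel2). The libraries labelled DKO were below all others for 5 genes (Peg10, Sgce, Mest, Impact and Nap1l5) and above all others for 4 (Asb4, Kcnq1ot1, Ascl2 and Zrsr1). Such counts were not made over all genes, so they do not show whether imprinted genes differ from other genes in this. By the edgeR test, a different measure from these counts, 35.6% of all 20426 genes tested rose and 33.7% fell between Control and the libraries labelled DKO. The 34 genes together took 1.01 to 1.02% of all counts in Control, 0.735 to 0.812% in iETV2 with DOX, 0.621 to 0.667% in iETV2 without DOX, and 0.385 to 0.451% in the 9 libraries of the H188A line and those labelled DKO.

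**Figure D3:**
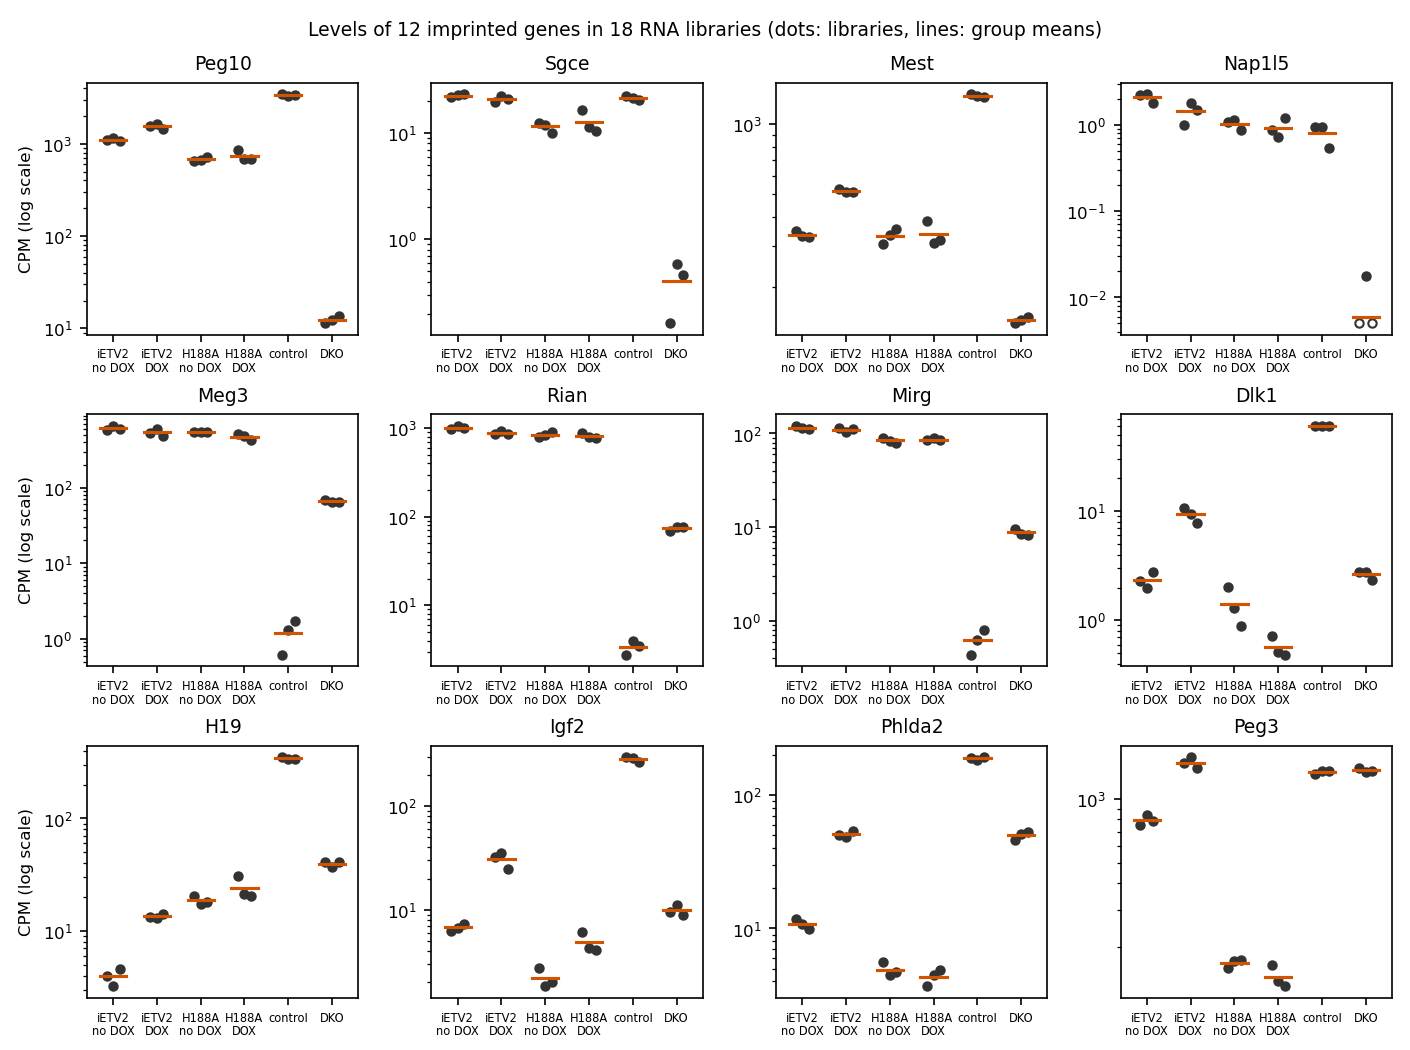
Levels in CPM (vertical axis, log scale) of 12 imprinted genes in the 18 RNA libraries by group (horizontal axis); dots are libraries, orange lines group means, and open dots at the bottom of the Nap1l5 panel are libraries at 0. The Control libraries are lowest for Meg3, Rian and Mirg and highest for Dlk1, H19, Igf2 and Phlda2, and those labelled DKO are lowest for Peg10, Sgce and Mest.

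With DOX in iETV2, Phlda2, Igf2, Dlk1, Zim1 and H19 rose by 1.80 to 2.24 on the log2 scale, and the 4 genes of the Snrpn domain fell. Of the 34 genes 14 rose and 8 fell, and 12 did not pass the test, while 13.7% of the 22025 genes tested rose and 13.3% fell. The median log2 change was 0.20 over the 34 genes and 0.00 over all genes, and the median absolute change 0.48 against 0.26. Of the 13 maternally expressed genes 5 rose and 3 fell, and of the 21 paternally expressed genes 9 rose and 5 fell. In these libraries the 4 blood markers summed to 3.61 to 5.68 CPM without and 239.9 to 264 CPM with DOX, and the 4 endothelial markers to 15.1 to 18.2 and 361 to 372 CPM. Their part in the changes of imprinted genes was not tested. With the replicate number as a block, 26 genes passed the test: all 22 remained, and Meg3 (-0.16, adjusted p = 0.0017), Rian (-0.18, adjusted p = 2.7e-04), Zrsr1 (0.25, adjusted p = 0.036) and Zdbf2 (0.14, adjusted p = 0.0060) were added.

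In the H188A line Igf2 rose, and the other 33 genes did not pass the test, where 2.22% of 21086 genes rose and 0.801% fell. At an unadjusted p under 0.05, 11 of the 34 genes differed, but the share of all genes at that threshold was not counted. The count of 1 depended on the fit: 3 rose and 5 fell with all 18 libraries, 3 rose and 2 fell without a filter on low counts, 1 rose and 1 fell by DESeq2 or with a filter of 1 CPM in 3 libraries, and 0 to 3 were called with 1 library left out (0 without H188A_noDOX replicate 2, H188A_DOX replicate 2 or H188A_DOX replicate 3, 2 without H188A_DOX replicate 1 and 3 without H188A_noDOX replicate 3). Over all genes, 73.5% of 637 calls were higher with DOX, and 41.2% of 1839 without H188A_noDOX replicate 3. The untreated libraries of this line also differed among themselves in the summed level of 1754 olfactory, vomeronasal and trace-amine receptor genes. They were at 598, 195 and 49.1 CPM against 34.8 to 92.6 CPM with DOX, so untreated replicate 3 lay within the DOX range. Untreated replicate 1, which held the highest sum, was also the highest of its group for Dlk1, Zim1, Usp29 and Rtl1, and the part of this difference in their values was not tested. The median absolute log2 change was 0.17 over the 34 genes and 0.19 over all genes. The difference between the lines was tested as an interaction of line and DOX over the 12 libraries of both experiments: the DOX change was more positive in the H188A line for 4 genes and more negative for 12, against 8.22% and 6.20% of 25516 genes.

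**Figure D4:**
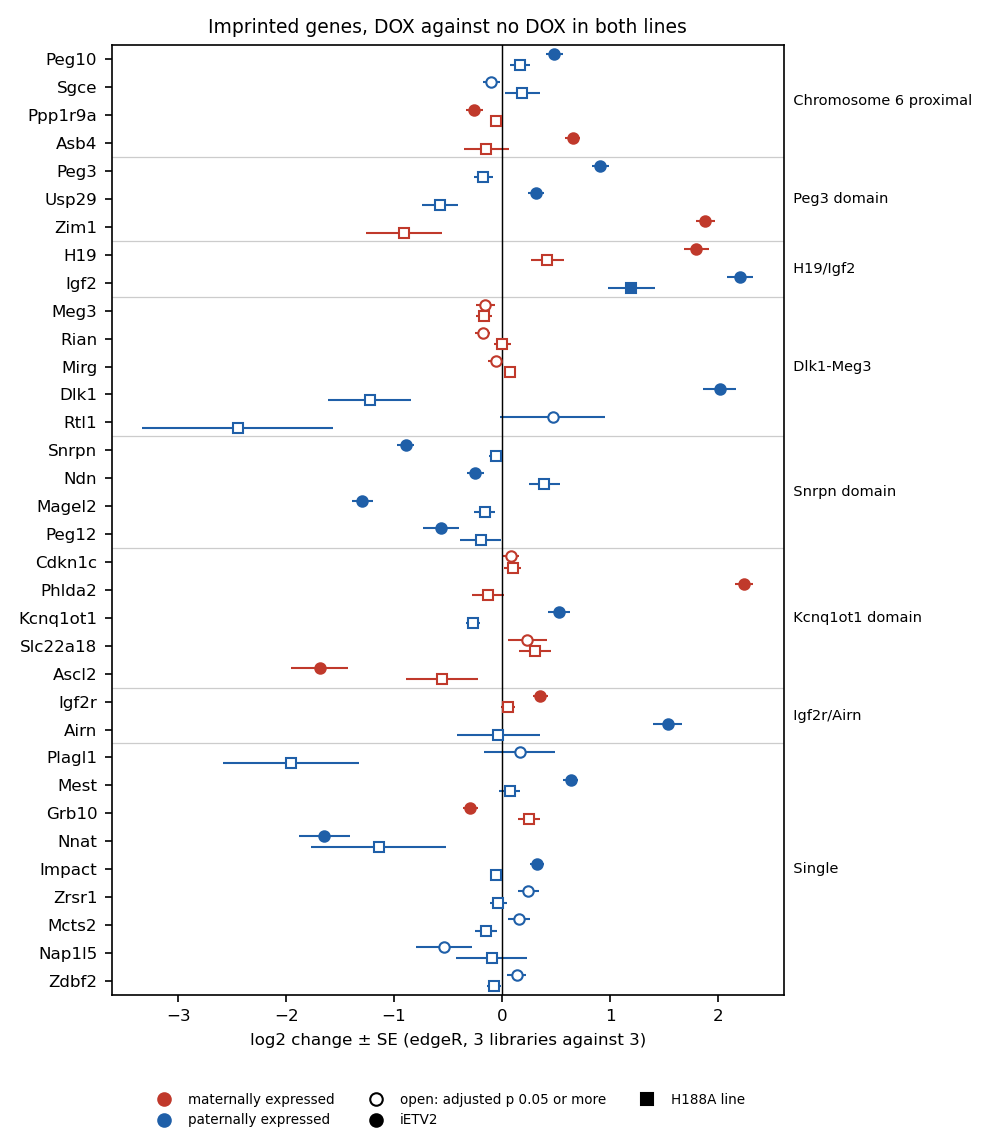
Fitted log2 change with DOX (horizontal axis, ± SE) of the 34 imprinted genes in iETV2 (circles) and in the H188A line (squares), 3 libraries against 3 in each, ordered by cluster; filled symbols passed the test. In iETV2, Phlda2 (2.24), Igf2 (2.21) and Dlk1 (2.01) lie farthest to the right and Ascl2 (-1.69) farthest to the left, and Igf2 is the only filled square.

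Igf2 and H19 both rose with DOX in iETV2. Igf2 was at 6.31, 6.72 and 7.26 CPM without and 32.6, 35 and 24.6 CPM with DOX (log2 change 2.21 ± 0.12 (SE), adjusted p = 1.2e-09). In the H188A line it was at 2.75, 1.83 and 2.02 and 6.18, 4.27 and 4.09 CPM, again without overlap (log2 change 1.20 ± 0.22 (SE), adjusted p = 0.025). The rise was smaller there (interaction log2 -1.0 ± 0.26 (SE), adjusted p = 0.016). The interaction was lost without iETV2_DOX replicate 2 (-0.88, adjusted p = 0.053) or H188A_DOX replicate 3 (-0.89, adjusted p = 0.052). The H188A call was lost when H188A_noDOX replicate 2 (1.07, adjusted p = 0.15), H188A_DOX replicate 2 (1.31, adjusted p = 0.058) or H188A_DOX replicate 3 (1.32, adjusted p = 0.075) was left out. H19 was at 4.02, 3.21 and 4.6 CPM without and 13.2, 13.1 and 14.2 CPM with DOX in iETV2 (log2 change 1.80 ± 0.12 (SE), adjusted p = 6.7e-09). Its level was 20.6, 17.5 and 18.1 and 31, 21.1 and 20.4 CPM in the H188A line, where the groups overlap (log2 change 0.42 ± 0.15 (SE), adjusted p = 0.15). The 7 visceral endoderm markers, among them Afp and Ttr, had sums of 465 to 479.7 CPM in untreated libraries of the H188A line, 360.1 to 725 CPM in its DOX-treated libraries, and 5.76 to 29.2 CPM in the 6 iETV2 libraries. Replicate 1 with DOX held the highest sum and also the highest H19 and Igf2 of that group. In the Control libraries of the third experiment this sum was 7.04 to 8.95 CPM, with H19 at 339.9 to 348 CPM. In the libraries labelled DKO it was 7.4 to 8.13 CPM, with H19 at 36.8 to 41.1 CPM. The part of visceral endoderm cells in either gene was not tested.

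The change of Dlk1 with DOX differed between the lines: it rose in iETV2 and, in the H188A line, did not pass its own test. It was at 2.32, 1.99 and 2.77 CPM without and 10.7, 9.5 and 7.78 CPM with DOX in iETV2 (log2 change 2.01 ± 0.16 (SE), adjusted p = 5.3e-08). The H188A line held 2.01, 1.3 and 0.899 CPM without and 0.726, 0.519 and 0.483 CPM with DOX (log2 change -1.22 ± 0.39 (SE), adjusted p = 0.11), without overlap. Dlk1 was called lower there with all 18 libraries in the fit (-1.18, adjusted p = 0.0086) and without H188A_noDOX replicate 3 (-1.44, adjusted p = 0.049). The difference of the DOX changes was log2 -3.21 ± 0.36 (SE; adjusted p = 1.4e-05). The maternally expressed RNAs of the cluster did not pass the test with DOX in the fit without a block: Meg3 was at 574, 656 and 593 CPM without and 531, 606 and 488 CPM with DOX in iETV2, with overlapping groups. Meg3 in the H188A line was at 551, 549 and 546 and 516, 479 and 426 CPM (log2 -0.17, adjusted p = 0.21). Rian was at 977, 1061 and 1006 and 869, 922 and 870.0 CPM in iETV2 (log2 -0.18, adjusted p = 0.076) and at 799, 839 and 902 and 892, 799 and 775 CPM in the H188A line. Mirg did not pass the test in either line (log2 -0.06, adjusted p = 0.65 in iETV2 and log2 0.08, adjusted p = 0.42 in the H188A line). Rtl1 did not pass it in iETV2 (log2 0.47, adjusted p = 0.58) or in the H188A line (log2 -2.45, adjusted p = 0.15). In the latter it was at 0.967, 0.678 and 0.42 CPM without and 0, 0.16 and 0.193 CPM with DOX, 5.85 times lower in the mean and without overlap, and with all 18 libraries in the fit it was called lower (-2.40, adjusted p = 0.017).

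Phlda2 had the largest rise of the 34 genes with DOX in iETV2. It was at 11.8, 10.8 and 9.91 CPM without and 50.1, 49 and 53.8 CPM with DOX, 4.71 times higher in the mean (log2 change 2.24 ± 0.085 (SE), adjusted p = 1.3e-11). Phlda2 in the H188A line was at 5.55, 4.51 and 4.7 and 3.67, 4.45 and 4.86 CPM, with overlapping groups (log2 -0.13, adjusted p = 0.62). Kcnq1ot1 was at 291, 372 and 333 CPM without and 450.5, 538 and 433 CPM with DOX in iETV2 (log2 change 0.53 ± 0.10 (SE), adjusted p = 7.6e-04), and at 336, 361 and 368 and 301, 292 and 263 CPM in the H188A line (log2 -0.27, adjusted p = 0.068). The other growth-restraining gene of the domain did not follow Phlda2: Cdkn1c was at 52.1, 45.5 and 47.1 and 49.5, 49.3 and 53.4 CPM in iETV2 (log2 0.08, adjusted p = 0.47) and at 18.1, 17 and 15.6 and 17.5, 18 and 16.9 CPM in the H188A line (log2 0.10, adjusted p = 0.46). Ascl2 fell from 2.59 ± 0.291 to 0.802 ± 0.223 CPM (SD, n = 3) in iETV2 (log2 -1.69, adjusted p = 1.3e-04), and Slc22a18 did not pass the test (log2 0.24, adjusted p = 0.42).

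All 3 genes of the Peg3 domain rose with DOX in iETV2. Peg3 was at 754, 843 and 787 CPM without and 1477, 1567 and 1398 CPM with DOX (log2 change 0.91 ± 0.078 (SE), adjusted p = 1.8e-07). Its level in the H188A line was several times lower, 159.9, 173 and 174 CPM without and 165, 139 and 131 CPM with DOX, and did not pass the test for DOX there (log2 -0.17, adjusted p = 0.28). Zim1, a maternally expressed zinc finger gene, was at 6.22, 6.2 and 7.51 and 22.7, 25.9 and 23.9 CPM in iETV2 (log2 change 1.88 ± 0.091 (SE), adjusted p = 2.3e-10) and at 3.2, 1.88 and 1.29 and 1.37, 1.02 and 0.87 CPM in the H188A line (log2 -0.91, adjusted p = 0.17). With all 18 libraries in the fit Zim1 was called lower in the H188A line (-0.87, adjusted p = 0.030). Usp29, a deubiquitinase gene that starts beside Peg3, was at 33.2, 35 and 33.4 and 40.01, 44.9 and 40.1 CPM in iETV2 (log2 0.31, adjusted p = 0.0046). This call was lost without iETV2_DOX replicate 2 (0.22, adjusted p = 0.073). Usp29 in the H188A line was at 6.55, 5.64 and 5.26 and 4.5, 3.79 and 3.04 CPM (log2 -0.57, adjusted p = 0.089). The interaction passed the test for all 3 genes, with log2 -1.08 (Peg3, adjusted p = 4.7e-05), -2.75 (Zim1, adjusted p = 1.8e-05) and -0.88 (Usp29, adjusted p = 0.0016).

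The Snrpn domain fell with DOX in iETV2, in 4 of 4 genes. Snrpn was at 54.7, 57.6 and 60.1 CPM without and 32.2, 31.4 and 28.1 CPM with DOX (log2 change -0.89 ± 0.075 (SE), adjusted p = 1.3e-07), and at 57.5, 62.1 and 65.1 and 58.3, 57.1 and 56.6 CPM in the H188A line (log2 -0.06, adjusted p = 0.62). Magel2 was at 25.4, 21.7 and 21.2 and 9.49, 9.07 and 9.05 CPM in iETV2 (log2 change -1.29 ± 0.096 (SE), adjusted p = 3.3e-08), and at 13.2, 13.9 and 15.2 and 13.1, 11.7 and 11.8 CPM in the H188A line (log2 -0.16, adjusted p = 0.33). These 2 genes moved down with DOX in iETV2 and up in the libraries labelled DKO, the comparisons sharing no library. Ndn was at 27.8, 29.2 and 29 and 22.1, 23.3 and 26.6 CPM in iETV2 (log2 -0.25, adjusted p = 0.024) and at 11.5, 15 and 13.6 and 20.6, 14.3 and 16.2 CPM in the H188A line (log2 0.39, adjusted p = 0.16). Peg12 fell from 5.44 ± 0.29 to 3.64 ± 0.81 CPM in iETV2 (SD, n = 3; log2 -0.56, adjusted p = 0.021). The calls of Ndn and Peg12 in iETV2 were lost without iETV2_noDOX replicate 1 (-0.25, adjusted p = 0.080 for Ndn and -0.52, adjusted p = 0.087 for Peg12) or without iETV2_noDOX replicate 2 (-0.20, adjusted p = 0.13 and -0.53, adjusted p = 0.061), and that of Ndn also without iETV2_DOX replicate 1 (-0.25, adjusted p = 0.051). Ndn was also lost without a filter on low counts (-0.23, adjusted p = 0.22) and with all 18 libraries in the fit (-0.25, adjusted p = 0.13), and Peg12 in the latter (-0.56, adjusted p = 0.051).

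On chromosome 6, Peg10 was at 1095, 1159 and 1077 CPM without and 1545, 1644 and 1433 CPM with DOX in iETV2 (log2 change 0.49 ± 0.079 (SE), adjusted p = 1.8e-04), while its neighbour Sgce, at 21.7, 22.9 and 23.1 and 19.6, 22.1 and 20.9 CPM, did not pass the test (log2 -0.10, adjusted p = 0.41). Peg10 in the H188A line was at 654, 674 and 713 and 854, 687 and 679.6 CPM (log2 0.17, adjusted p = 0.31), and Sgce at 12.6, 12 and 10.1 and 16.4, 11.3 and 10.5 CPM (log2 0.19, adjusted p = 0.51). Asb4 rose from 50.3, 52.9 and 50.04 to 79.9, 77.2 and 81.8 CPM in iETV2 (log2 change 0.65 ± 0.067 (SE), adjusted p = 1.6e-06). Asb4 was more than an order of magnitude lower in the H188A line, at 3.74, 2.44 and 3.51 CPM without and 2.55, 3.4 and 2.53 CPM with DOX (log2 -0.15, adjusted p = 0.70). Ppp1r9a fell slightly in iETV2, from 99.4 ± 8.85 to 82.4 ± 4.38 CPM (SD, n = 3; log2 -0.26, adjusted p = 0.023). It was lost without iETV2_noDOX replicate 2 (-0.17, adjusted p = 0.15) or without a filter on low counts (-0.24, adjusted p = 0.22).

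Igf2r, Airn and Mest rose with DOX in iETV2, and Grb10 fell. Igf2r was at 240.4, 239 and 229.6 CPM without and 299.8, 310.1 and 289 CPM with DOX (log2 0.36, adjusted p = 0.0010), and at 214, 218 and 217 and 233, 211 and 209.7 CPM in the H188A line (log2 0.06, adjusted p = 0.61). Airn was at 3.33, 4.05 and 3.62 and 9.3, 12.2 and 10.2 CPM in iETV2 (log2 change 1.53 ± 0.13 (SE), adjusted p = 1.9e-07), and at 2.45, 1.81 and 1.88 and 3.23, 1.58 and 0.998 CPM in the H188A line. Receptor gene and antisense RNA thus both rose with DOX in iETV2 and both fell in the libraries labelled DKO. Mest was at 347, 331 and 326 and 524, 511 and 511 CPM in iETV2 (log2 change 0.64 ± 0.069 (SE), adjusted p = 2.7e-06) and at 304, 335 and 354 and 385, 307 and 317 CPM in the H188A line (log2 0.07, adjusted p = 0.70). Grb10 was at 714, 708 and 681 and 568, 568 and 565 CPM in iETV2 (log2 change -0.29 ± 0.069 (SE), adjusted p = 0.0041). Its call was lost without a filter on low counts (-0.27, adjusted p = 0.30). Grb10 was at 159, 171 and 179 and 226, 185 and 175 CPM in the H188A line (log2 0.25, adjusted p = 0.18). Of the other genes outside clusters, Impact rose (log2 0.32, adjusted p = 0.0016) and Nnat fell (log2 -1.65, adjusted p = 5.2e-05) with DOX in iETV2. Zdbf2 was at 484, 562 and 499 and 558, 602 and 521 CPM in iETV2 and at 280.3, 296 and 317 and 282, 272 and 267 CPM in the H188A line. Plagl1 (log2 0.16), Zrsr1 (0.24), Mcts2 (0.16) and Nap1l5 (-0.53) did not pass the test in iETV2.

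Between the lines themselves, imprinted genes were mostly lower in the H188A line. Without DOX 4 of the 34 genes were higher and 19 lower there, and 11 did not pass the test, where 19.7% of 25516 genes were higher and 18.6% lower. With DOX 6 were higher and 22 lower, where 19.9% of genes were higher and 17.6% lower. Asb4 differed most, with a mean of 51.1 CPM in iETV2 and 3.23 CPM in the H188A line without DOX (log2 change -3.94 ± 0.13 (SE), adjusted p = 2.3e-12). Peg3 and Usp29 were lower together (log2 -2.18, adjusted p = 7.8e-11 for Peg3, log2 -2.50, adjusted p = 9.7e-11 for Usp29), as were Grb10 (log2 -1.99, adjusted p = 2.0e-10) and Cdkn1c (log2 -1.47, adjusted p = 2.1e-10). H19 ran the other way, at 3.95 ± 0.697 CPM in iETV2 and 18.7 ± 1.63 CPM in the H188A line (SD, n = 3; log2 change 2.31 ± 0.15 (SE), adjusted p = 5.8e-09). The visceral endoderm markers given above also differed between the lines, and their part in H19 was not tested. Impact (log2 0.64, adjusted p = 1.3e-06), Zrsr1 (log2 0.45, adjusted p = 6.0e-04) and Peg12 (log2 0.62, adjusted p = 0.023) were also higher in the H188A line without DOX, Peg12 no longer without iETV2_noDOX replicate 3 (0.54, adjusted p = 0.087) or H188A_noDOX replicate 3 (0.49, adjusted p = 0.098). Zrsr1 was no longer called without a filter on low counts (0.32, adjusted p = 0.18). Meg3 (log2 -0.10, adjusted p = 0.51) and Mest (log2 0.04, adjusted p = 0.83) did not pass the test. The lines were taken here as separate experiments, although their library labels share a prefix. They carried different Y-linked signal and differed in markers (pluripotency sum 963 to 1017 CPM in iETV2 and 1849 to 1917 CPM in the H188A line without DOX). Without DOX the 4 primitive streak markers summed to 1045 to 1105 CPM in iETV2 and 16.7 to 18.2 CPM in the H188A line. With DOX these sums were 1223 to 1273 and 22.7 to 23.7 CPM. The part of such cell states in the differences between the lines was not tested. The variant, the line and any effect of the experiment cannot be told apart.

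Of 21 genes that establish, keep or erase imprints, 13 rose and 6 fell in the libraries labelled DKO, where 35.6% of all genes tested rose and 33.7% fell. Dnmt3l, the cofactor of de novo DNA methylation, was at 2.73 ± 0.588 CPM in Control and 90.1 ± 1.13 CPM in the libraries labelled DKO (SD, n = 3; log2 4.91, adjusted p = 3.7e-22). The DNA demethylation enzyme Tet1 rose (log2 1.84, adjusted p = 5.2e-21) while its relative Tet3 fell (log2 -1.91, adjusted p = 5.4e-20), and Zfp57, the reader of methylated imprints, went from 56.1 ± 3.01 to 263 ± 6.02 CPM (SD, n = 3; log2 2.11, adjusted p = 1.2e-19). Dnmt3l, Tet1 and Zfp57 are also expressed in pluripotent cells, whose marker sum differed between these groups. With DOX in iETV2, 2 of the 21 rose and 2 fell, where 13.7% of all genes rose and 13.3% fell. Zfp57 (log2 0.89, adjusted p = 4.0e-08) and Dnmt3l (log2 1.14, adjusted p = 1.5e-07) rose, and the de novo methyltransferase Dnmt3b (log2 -0.87, adjusted p = 7.7e-08) and Tet3 (log2 -0.59, adjusted p = 6.1e-06) fell. In the H188A line 0 of 21 passed the edgeR test, 3 of them at an unadjusted p under 0.05 and 1 by DESeq2. The share of all genes at the unadjusted threshold was not counted.

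A second list of 35 imprinted genes served as a comparison within the class. In the libraries labelled DKO 12 rose and 11 fell of the 30 that were tested (35.6% and 33.7% of all genes), with a median absolute log2 change of 0.55, near the 0.56 of all genes. Sfmbt2, a placental Polycomb-family gene, rose (log2 2.15, adjusted p = 1.3e-20), as did Jade1 (log2 1.66, adjusted p = 2.1e-19) and Gab1 (log2 1.77, adjusted p = 2.2e-18), whose imprint in the placenta rests on H3K27me3, and the amino acid transporter gene Slc38a4 fell (log2 -1.82, adjusted p = 2.0e-20). With DOX in iETV2, 8 rose and 2 fell of the 34 tested (13.7% and 13.3% of all genes), among them Slc38a4 (log2 1.33, adjusted p = 2.5e-10), Gab1 (log2 1.01, adjusted p = 1.8e-08) and Tspan32 (log2 3.72, adjusted p = 5.4e-06), which rose, and Calcr (log2 -2.0, adjusted p = 5.3e-08), which fell. In the H188A line 0 of 33 passed the edgeR test, 5 of them at an unadjusted p under 0.05 and 2 by DESeq2. Here too the share of all genes at the unadjusted threshold was not counted.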

How the data were processed

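RNA was sequenced in 18 libraries and H3K9me3 ChIP in 6 libraries with 6 inputs, whose values were not used. For RNA the authors deposited whole-number counts of reads for each Ensembl gene, unnormalized. The submitters' processing notes name featureCounts 2.0.6, HTSeq 2.0.3, STAR 2.7.10b, StringTie 2.2.1, Picard 3.0.0 and DESeq2 1.18.1, then DiffBind, ChIPseeker and Bowtie, and the builds mm10 and GRCm38. The sources used here do not give which tool made the counts, its strand setting, or which tool called regions. For each ChIP library the authors deposited a list of regions with ChIP and input read counts, and per the file headers with a log2 fold of ChIP over input, p-values, FDR values (all at most 0.05) and a score, which is the log2 value rescaled. Regions are whole windows of 200 bp and were written 1-based.

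Groups were taken from the labels. Counts were tested in R 4.3.3 with edgeR 4.0.16 (limma 3.58.1): filterByExpr, TMM, the quasi-likelihood F test, and Benjamini-Hochberg adjustment over all tested genes with a threshold of 0.05. All 34 genes passed the filter in every comparison. Each experiment was fitted on its own 6 libraries, and the interaction and the comparisons between lines on 12. The fit was tested on simulated data. The SE was taken as the absolute log2 change over the square root of F. CPM use library totals without TMM factors, so fitted and CPM ratios differ slightly. Replicate pairs differed by more than sampling noise, so none was merged. The reported fits used no pairing, and the replicate number entered only as a block in an alternative. Same-numbered libraries in iETV2 deviated together (correlations 0.145, 0.407 and 0.338), a hint of pairing from the data and not from the labels. The same correlations were 0.0054, 0.245 and 0.393 in the H188A line and 0.0256, 0.0242 and 0.0251 in the third experiment. Regions were handled and figures drawn in Python 3.11.15 (pandas 2.3.3, scipy 1.17.1, matplotlib 3.10.9).

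The imprinted genes and the other lists were chosen with earlier results of these data known. Values in every library are given for genes with adjusted p under 0.05 in at least 1 comparison within an experiment and a mean of at least 1 CPM in a group, up to 3 per cluster by smallest adjusted p; other genes by means. Regulators and further imprinted genes are up to 4 per list with the smallest adjusted p. Alternatives were DESeq2 1.42.0, DESeq2 size factors, other filters, all 18 libraries, a replicate block, each library left out, and other windows and FDR limits for ChIP. Intervals and floors cover counting error only.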

Additional observations from a re-analysis of the deposited data

Results flagged for a closer look

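For 16 of the 34 imprinted genes the change with DOX differed between the H188A line and iETV2 by the test of the interaction (edgeR quasi-likelihood test over 12 libraries, adjusted p under 0.05), where 8.22% of 25516 genes differed in the positive and 6.20% in the negative direction. The value given is the log2 change in the H188A line minus that in iETV2. It was negative for 12 genes. Dlk1 (-3.21, adjusted p = 1.4e-05), Zim1 (-2.75, adjusted p = 1.8e-05) and Phlda2 (-2.36, adjusted p = 8.6e-08) differed most, followed by Airn (-1.57, adjusted p = 0.017), H19 (-1.37, adjusted p = 2.4e-04), Peg3 (-1.08, adjusted p = 4.7e-05) and Igf2 (-1.0, adjusted p = 0.016). Smaller negative differences were those of Usp29 (-0.88, adjusted p = 0.0016), Asb4 (-0.79, adjusted p = 0.0079), Kcnq1ot1 (-0.79, adjusted p = 0.0020), Mest (-0.56, adjusted p = 0.012) and Impact (-0.37, adjusted p = 0.017). It was positive for Magel2 (1.14, adjusted p = 7.9e-05), Snrpn (0.84, adjusted p = 1.1e-04), Ndn (0.65, adjusted p = 0.023) and Grb10 (0.55, adjusted p = 0.012).

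Leaving out single libraries ended 5 of these calls. Igf2 was lost without iETV2_DOX replicate 2 (-0.88, adjusted p = 0.053) or H188A_DOX replicate 3 (-0.89, adjusted p = 0.052), Airn without iETV2_noDOX replicate 1 (-1.51, adjusted p = 0.0503) or iETV2_DOX replicate 2 (-1.43, adjusted p = 0.053), and Grb10 without H188A_DOX replicate 1 (0.41, adjusted p = 0.15). Ndn was lost without iETV2_noDOX replicate 1 (0.66, adjusted p = 0.053) or 2 (0.61, adjusted p = 0.060), iETV2_DOX replicate 1 (0.61, adjusted p = 0.064) or 2 (0.64, adjusted p = 0.056), or H188A_DOX replicate 1 (0.47, adjusted p = 0.10). Impact was lost in 8 of the 12 such fits, among them that without H188A_DOX replicate 1 (-0.39, adjusted p = 0.14). Without a filter on low counts, Grb10 (0.70, adjusted p = 0.064), Impact (-0.21, adjusted p = 0.70), Kcnq1ot1 (-0.64, adjusted p = 0.097) and Mest (-0.41, adjusted p = 0.39) were lost. The lines were taken here as separate experiments, so line and any effect of the experiment cannot be told apart.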

How the results depend on the processing

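Among 3051 recomputed values of imprinted genes, no direction reversed where the gene was called in the reported or the alternative fit. Changes of sign in genes called in neither fit were not counted. Of these values 2917 kept their side of the threshold, 87 calls were lost and 47 gained. The count of imprinted genes called stayed within 1.5 times the reported one in every alternative for DOX in iETV2 (22, range 19 to 26), the libraries labelled DKO (31, range 28 to 31), the interaction (16, range 12 to 20) and the lines without DOX (23, range 20 to 24) and with DOX (28, range 23 to 28). For DOX in the H188A line the count was 1 and became 2 with DESeq2, 5 without a filter on low counts, 2 with a filter of 1 CPM in 3 libraries and 8 with all 18 libraries in the fit, and 0 to 3 when 1 library was left out; the cause was not tested. Over all genes the H188A line gave 637 calls, 979 with DESeq2, 423 with DESeq2 size factors, 2032 without a filter, 1596 with all 18 libraries, 263 with the replicate block, and 81 (without H188A_noDOX replicate 2) to 1839 (without H188A_noDOX replicate 3). With the replicate block 26 imprinted genes were called for DOX in iETV2, 1 in the H188A line, 31 in the libraries labelled DKO, 18 for the interaction (Igf2r and Plagl1 added), and 23 and 28 between the lines. Pairing by number was a hint from the data, not the design. The block ended no call of an imprinted gene. The difference of 1 gene with an H3K9me3 region between DOX and untreated was 0 over gene bodies, 1.67 with 10 kb on either side, 1 at an FDR of at most 0.01 and 0.333 to 1.83 with 1 library left out; with 3 libraries against 3 no setting could pass the threshold, so its p says nothing about stability. Depth limits Rtl1, Nap1l5, Ascl2, Plagl1 and Nnat, which lay at or below a few CPM in several groups.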
